A study of Mus musculus with 4 samples.

Results

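The transcripts of 6 melanocyte pigment genes, Pmel, Mlana, Dct, Tyrp1, Tyr and Slc45a2, were followed through the immune cells of a mouse melanoma. The 6 genes were taken by symbol, are present in both count matrices, and are 6 of 32285 genes in the CD45 matrix and 6 of 31053 in the T cell matrix. B16-F10 melanoma cells carrying a doxycycline-inducible green fluorescent protein, ZsGreen (ZsG), were injected subcutaneously into wild-type C57BL/6 mice, all of which drank doxycycline before tumors were taken on day 8. The tumor line was a single clone chosen for brightness. CD45+ tumor-infiltrating cells were sorted into a ZsG- library of 5437 barcodes and a ZsG+ library of 5168, and CD45+TCRb+ T cells were sorted separately into ZsG- (1136 barcodes) and ZsG+ (2396 barcodes) libraries. The gates were set on ZsGreen to separate cells by tumor-derived protein, so the pigment genes give a readout of tumor-type RNA that the gate itself did not use. The ZsG+ gate of the CD45 sort took bright cells, and per the study's account it left most lymphocytes with ZsGreen on the ZsG- side, which is the reason for the separate T cell sort; lymphoid values of the CD45 sort are to be read with this.

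Each of the 4 groups is 1 library. There is therefore no replicate error, no test between conditions is possible, and the intervals given are exact 95% intervals that cover counting error only. How many mice stand behind each library, the sources used here do not say. Levels are unique molecular identifiers (UMIs) of the named genes per 1000000 UMIs of the same cells (CPM), and since the chemistry reads 3' ends, levels were not divided by gene length. The 2 CD45 libraries shared 6 barcodes, the 2 T cell libraries 1 and the 2 sorts 9. After filters on genes and mitochondrial share, 4699 ZsG- and 4123 ZsG+ cells of the CD45 sort were kept (median 5769 and 9928 UMIs), and 948 and 1879 of the T cell sort (median 6634 and 8180). Classes were built by clustering and named X-like from fixed marker genes, so a class may differ from the one the study drew. Clusters with markers of different lineages were kept apart as mixed lineage cells. The labels of the T cell sort contradict themselves on which suffix is ZsG+. The library of 2396 barcodes was taken as ZsG+, as the name of the combined set puts it, and results that rest on this are given for each library so that they can be read with the names exchanged. The T cell sort also went against its label in part, since macrophage-like, monocyte-like and plasmacytoid dendritic cell (pDC)-like cells were present in it. A cluster of 97 cells led by Dct, Pmel, Mlana, Tyrp1 and Ptgds was present too. It was left unnamed, as a cluster led by pigment genes took no immune name. The clustering itself did not use the 6 genes, and 38 of the 97 cells held a pigment UMI.

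Pigment is made in melanosomes, organelles related to lysosomes, from tyrosine. Tyr encodes tyrosinase, the rate-limiting enzyme of melanin synthesis, and Tyrp1 and Dct encode its relatives that act on later intermediates of eumelanin synthesis. Pmel forms the amyloid fibrils on which melanin is deposited, Mlana (MART-1) is a small melanosomal membrane protein needed for Pmel maturation, and Slc45a2 is a transporter of the melanosome membrane. These genes are driven by the transcription factor Mitf in the melanocyte lineage, are kept on in B16 melanoma, and are not part of the known program of leukocytes.

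On GRCm38 (GENCODE gene models, whose identifiers matched the files for all 6), Dct lies at chr14:118012790-118052244 on the minus strand, Pmel at chr10:128704195-128720238 on the plus strand, Tyrp1 at chr4:80834123-80851719 on the plus strand, Mlana at chr19:29697824-29708634 on the plus strand, Slc45a2 at chr15:11000721-11029233 on the plus strand and Tyr at chr7:87424771-87493512 on the minus strand. All are protein-coding, each on a different chromosome. RefSeq promoter sequence (GRCm38.p6) was at hand for 3 of the 6, those of the tyrosinase enzyme family. The 250 bases before each start, read 5' to 3' on the gene's strand, are shown because all 3 hold the letters CATGTG, the core of the E-box that Mitf binds, printed in capitals on either strand:
Dct (chr14:118052247-118052496, minus strand): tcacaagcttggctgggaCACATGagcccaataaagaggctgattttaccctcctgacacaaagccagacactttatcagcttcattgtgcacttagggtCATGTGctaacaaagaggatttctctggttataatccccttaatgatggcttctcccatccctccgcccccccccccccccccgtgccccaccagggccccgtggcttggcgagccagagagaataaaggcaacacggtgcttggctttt
Tyrp1 (chr4:80833963-80834212, plus strand): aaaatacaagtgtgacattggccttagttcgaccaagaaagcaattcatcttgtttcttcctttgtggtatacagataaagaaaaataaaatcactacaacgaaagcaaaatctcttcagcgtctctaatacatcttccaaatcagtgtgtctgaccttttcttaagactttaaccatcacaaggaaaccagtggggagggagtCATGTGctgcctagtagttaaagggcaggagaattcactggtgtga
Tyr (chr7:87493513-87493762, minus strand): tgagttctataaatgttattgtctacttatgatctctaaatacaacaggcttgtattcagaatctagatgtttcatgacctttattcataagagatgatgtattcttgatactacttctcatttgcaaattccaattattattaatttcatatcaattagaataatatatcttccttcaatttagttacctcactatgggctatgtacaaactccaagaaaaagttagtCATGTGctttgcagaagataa
The first letter of the motif stood at -232 (reverse strand, CACATG) and -150 in Dct, at -46 in Tyrp1 and at -21 in Tyr, counted from the start. CATGTG or its reverse was found in 12.3% of the 32851 RefSeq promoter windows of this length, and each of the 4 matches was also preceded by T (TCATGTG), which 3.25% of the windows hold. Starts are those of RefSeq, and that of Tyrp1 lies inside the GENCODE span given above, so that its window overlaps this gene model. A match is a description of letters, not of binding.

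In the CD45 sort, pigment RNA was found almost entirely behind the ZsG+ gate. All 4123 kept ZsG+ cells together held 996 pigment UMIs (19.8 CPM, interval 18.5 to 21.0), against 18 UMIs in 4699 ZsG- cells (0.433 CPM, 0.257 to 0.685), a ratio of 45.6 (28.7 to 77.3). At least 1 pigment UMI was present in 628 ZsG+ cells (15.2%) and 15 ZsG- cells (0.319%). Dct, the dopachrome tautomerase, was the most counted gene, at 7.75 CPM behind the ZsG+ gate and 0.120 outside it. The melanosome fibril gene Pmel stood at 4.72 and 0.0963 CPM, the enzyme gene Tyrp1 at 4.20 and 0.120, and Mlana at 2.26 and 0.0481. The lowest were the transporter gene Slc45a2 (24 UMIs against 1) and tyrosinase itself (17 against 1), with ratios of 19.8 (3.22 to 813) and 14.0 (2.19 to 585). Of the 5 members with at least 20 UMIs over both libraries, all 5 were more than 2-fold higher in the ZsG+ library, where 15.9% of 13620 genes were and 23.2% were as far lower. All 5 reached 20 UMIs in the ZsG+ library alone, so the filter itself fixed their side and the count supports nothing. The gate also changed the mix of cells: 2152 kept ZsG+ cells but only 3 ZsG- cells were macrophage-like, so the library ratio cannot be told apart from the difference in cell types without the levels within each class.

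**Figure D1:**
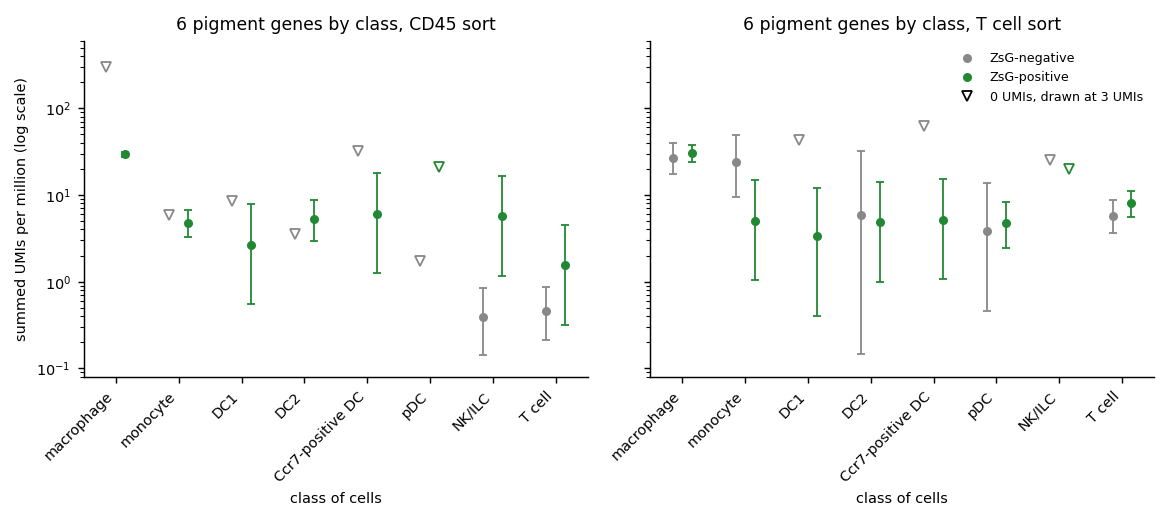
Summed CPM of the 6 pigment genes (log axis) in each class of the CD45 sort (left) and the T cell sort (right), ZsG- in grey and ZsG+ in green; bars are exact 95% counting intervals, and open triangles are classes with 0 UMIs, drawn where 3 UMIs would lie. In the CD45 sort ZsG+ macrophage-like cells stand at 29.5 CPM and the ZsG- NK/ILC-like and T cell-like cells under 1; in the T cell sort the 2 libraries overlap in the macrophage and T cell classes.

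Within the ZsG+ CD45 library, macrophage-like cells carried the most. Their 2152 cells held 826 pigment UMIs, 29.5 CPM (27.6 to 31.6), and 501 of them (23.3%, 21.5 to 25.1) had at least 1. Monocyte-like cells held 33 UMIs in 835 cells, 4.80 CPM (3.31 to 6.74), and the 3 conventional dendritic cell (DC) classes together held 21 UMIs in 394 cells, 4.73 CPM (2.93 to 7.23). The level in macrophage-like cells was 6.15 times that of monocyte-like cells (4.35 to 8.999) and 6.25 times that of conventional DC-like cells (4.06 to 10.2). Monocyte-like and conventional DC-like cells were not distinguishable from each other (ratio 1.02, 0.570 to 1.85). Among the DC classes, the Cd209a/Mgl2-led DC2-like cells stood at 5.31 CPM (2.97 to 8.76), Xcr1-led DC1-like cells at 2.66 (0.549 to 7.78) and Ccr7-positive DC-like cells at 6.11 (1.26 to 17.9), with intervals that overlap. Mixed lineage cells, which held C1q and lymphoid transcripts together, stood at 13.2 CPM (10.8 to 15.9, 110 UMIs in 459 cells).

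Lymphoid and plasmacytoid cells behind the same gate held few pigment UMIs. NK/ILC-like cells held 3 in 113 cells (5.66 CPM, 1.17 to 16.5) and T cell-like cells 3 in 115 cells (1.54 CPM, 0.318 to 4.51). Together the 228 lymphoid cells stood at 2.42 CPM, so macrophage-like cells were 12.2 times higher (5.58 to 33.3), while the ratio to NK/ILC-like cells alone was 5.22 (1.78 to 25.4). None was found in 22 pDC-like cells, where 3 counts would be a share of positive cells of 13.6% and the exact interval reaches 15.4%, or in 32 non-classical monocyte-like cells (9.38% and 10.9%). At these cell numbers the levels of pDC-like, non-classical monocyte-like, DC1-like and lymphoid cells cannot be ordered.

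The members with enough UMIs were compared 1 by 1 between macrophage-like and monocyte-like cells. Dct was 6.16 times higher in macrophage-like than in monocyte-like cells (3.55 to 11.7), Pmel 6.88 times (3.28 to 17.3), Tyrp1 7.37 times (3.32 to 20.4) and Mlana 4.72 times (1.95 to 14.9). These 4 of 4 were past 2-fold, where 12.1% of 11379 genes were and 2.87% were as far lower. Against lymphoid cells 4 of 4 were past 2-fold too, where 22.1% of 11545 genes were and 21.8% were as far lower. All 4 passed the limit of 20 UMIs through macrophage-like cells, where they are high, so these counts were set by the filter and support nothing. Slc45a2 (16 against 2 UMIs, ratio 1.97, 0.462 to 17.6) and Tyr (12 against 0) were too sparse to place. Macrophage-like cells had 11.7 CPM of Dct (10.4 to 12.997), 7.01 of Pmel (6.06 to 8.06), 6.44 of Tyrp1 (5.53 to 7.45), 3.43 of Mlana (2.78 to 4.19), 0.572 of Slc45a2 (0.327 to 0.929) and 0.429 of Tyr (0.222 to 0.750). In this order Pmel and Tyrp1 overlap, as do Slc45a2 and Tyr.

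Behind the ZsG- gate of the CD45 sort, the same classes held few pigment UMIs or 0. Monocyte-like cells (56), conventional DC-like cells (120) and pDC-like cells (201) held 0 pigment UMIs, where 3 counts would be shares of positive cells of 5.36%, 2.50% and 1.49% and the exact intervals reach 6.38%, 3.03% and 1.82%. Non-classical monocyte-like cells held 2 UMIs in 195 cells (1.19 CPM), against 0 in the 32 cells of the ZsG+ library. NK/ILC-like cells held 6 UMIs in 2516 cells (0.391 CPM), of which 1 cell held 4, and T cell-like cells held 9 UMIs in 9 of 1484 cells (0.460 CPM). For NK/ILC-like cells the ZsG+ over ZsG- ratio was 14.5 (2.34 to 67.8), resting on 3 UMIs, for T cell-like cells alone it was 3.35 (0.584 to 13.4), which includes 1, and for NK/ILC-like and T cell-like cells together it was 5.64 (1.79 to 15.4), resting on 6. Conventional DC-like cells were at least 2.04-fold higher behind the ZsG+ gate, counted against 3 UMIs in the ZsG- class, and the exact interval of the ratio begins at 1.52. For monocyte-like and macrophage-like cells the ZsG- class was too small for a bound above 1.

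Depth differed between classes, so shares were also computed with each cell thinned to 2000 UMIs. The thinning was a single random draw, and the intervals leave out the error of that draw. The thinned share of positive cells was 5.26% in ZsG+ macrophage-like cells (4.35 to 6.29, 3 cells left out as shallower), 1.32% in monocyte-like cells (0.659 to 2.34) and 1.02% in conventional DC-like cells (0.277 to 2.58), with median depths of 11037, 7153 and 10462.5 UMIs before thinning. NK/ILC-like cells (1.79%, 0.217 to 6.30, median 3556 UMIs) and T cell-like cells (1.74%, 0.211 to 6.14, median 14250 UMIs) had 2 positive cells each after thinning and intervals that overlap those of all 3 myeloid classes. Each had 3 before thinning, so these shares hang on the draw and do not order the classes. For monocyte-like cells 11 were positive in the draw of the ZsG+ library. Another draw, over both libraries, left 8, although the ZsG- cells held 0 pigment UMIs. Free RNA in the droplets adds UMIs to every class, and its CPM differs with depth, so transcripts of other cell types are given for comparison. C1q genes, made by macrophages, stood at 7207 CPM in macrophage-like cells, 279 in NK/ILC-like cells and 108 in T cell-like cells, so that these lymphoid classes held 3.87% and 1.498% of the macrophage level of C1q. They held 19.1% and 5.22% of the macrophage level of pigment RNA, each on 3 UMIs. Monocyte-like cells held 18.5% of the C1q level and 16.3% of the pigment level. CD3 genes stood at 7.62 CPM in macrophage-like cells, 0.397% of the T cell-like level. In the T cell sort, ZsG+ T cell-like cells held 0.320% of the macrophage-like level of C1q and 26.3% of that of pigment RNA. ZsG- T cell-like cells of that sort held 0.140% and 21.4% of the levels of their own library's macrophage-like cells. The C1q shares speak only for RNA of macrophage-like cells. In the T cell sort 67 barcodes rich in pigment RNA, described below, held 56080 pigment UMIs, and macrophage-like cells 103. The C1q shares therefore do not measure free pigment RNA, and the gap between the 2 shares cannot be read as pigment RNA above it. The part of free RNA in the lymphoid values was not tested.

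Most positive macrophage-like cells held a single pigment UMI. Of the 501 positive cells 350 held 1, 102 held 2, 30 held 3, 11 held 4 or 5, 5 held 6 to 9 and 3 held 10 or more. These 3 cells held 101 UMIs, 12.2% of the total, and 1 of them held 56. Of the 102 cells with 2 UMIs, 72 held them from different genes. The number that independent draws of UMIs would give was not computed, so the 72 are no sign of joint presence. No monocyte-like cell held more than 2. Leaving out the 49 macrophage-like cells with 3 or more pigment UMIs, the level was 20.6 CPM (18.9 to 22.3), and the ratio to NK/ILC-like cells was 3.63 (1.24 to 17.7). Scrublet, a doublet caller, marked 1 and 0 cells in the 2 CD45 libraries, too few for the caller to have worked, so no cell was removed on its call. Of the 49 cells, 1 was among the highest doublet scores, and 43 of the 197 highest-scoring ZsG+ cells held a pigment UMI. The scores were simulated from the kept cells of each library, where no cluster was led by pigment genes. They therefore cannot speak for pairs of a macrophage-like cell and a tumor cell.

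**Figure D2:**
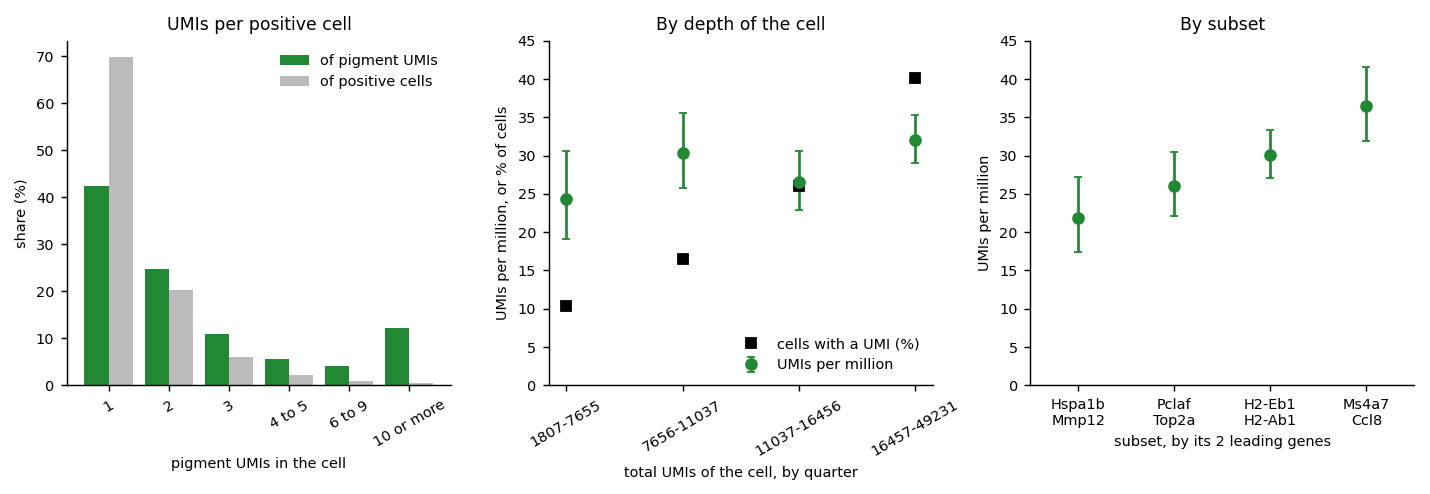
Pigment UMIs in ZsG+ macrophage-like cells of the CD45 sort: share of the positive cells and of the pigment UMIs by UMIs per cell (left), CPM with 95% counting intervals and share of cells with a UMI by 4 depth groups of cells (middle), and CPM by subset (right). Single-UMI cells are the largest group, the levels lie between 24.4 and 32.1 while the share of positive cells goes from 10.4% to 40.1%, and the Ms4a7/Ccl8-led subset stands highest.

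The share of positive cells was higher in deeper cells, while the intervals of the level overlapped. Macrophage-like cells were split by depth into 4 groups of 538. From the shallowest to the deepest group, 10.4%, 16.5%, 26.0% and 40.1% had a pigment UMI, while the level was 24.4 (19.1 to 30.7), 30.4 (25.8 to 35.6), 26.6 (22.9 to 30.6) and 32.1 CPM (29.1 to 35.4). Thinned to 2000 UMIs, the shares were 4.86%, 4.46%, 5.02% and 5.02%.

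Subsets of macrophage-like cells differed less than classes did. Cells led by Ms4a7, Ccl8, Pf4, Folr2 and Trem2 stood at 36.5 CPM (31.9 to 41.6, 429 cells), 1.33 times the other macrophage-like cells (1.13 to 1.55). Cells led by MHC class II genes and Ly6i stood at 30.0 (27.0 to 33.3, 992 cells), and cycling cells led by Pclaf and Top2a at 26.0 (22.1 to 30.5, 259 cells). Cells led by Hspa1b, Mmp12 and Hilpda stood lowest, at 21.9 (17.4 to 27.2, 472 cells), 0.712 times the others (0.560 to 0.895). In the MHC class II-led subset 2 cells held 90 of the 364 pigment UMIs, while no cell of another subset held more than 11. These 2 cells held only 36465 of the 12117091 total UMIs of that subset, so its level without them would be lower. That level was not computed. The order of that subset and the Hspa1b-led cells is therefore not settled, and both ratios rest in part on the 2 cells. Dct stood at 14.6 CPM in the first subset (11.8 to 18.0) and 11.7 in the MHC class II-led one (9.87 to 13.8). It stood at 9.35 in cycling cells (7.05 to 12.2) and 10.1 in Hspa1b-led cells (7.18 to 13.9). The intervals overlap within each of these pairs, so Dct does not order them. Tyrp1 stood at 8.69 and 3.74 CPM in the first and last subset. The subsets were clustered on variable genes of the same cells, without the pigment genes and the other melanocyte lists. These values describe clusters and are no test.

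The pigment genes were found together in the same macrophage-like cells. To keep depth and subset equal, cells with a UMI of any of the other 5 genes were compared with cells without, the latter weighted to the same depth bins and subsets. Dct was 3.22 times higher in cells that held another pigment gene (2.53 to 4.09), Pmel 3.25 times (2.37 to 4.49), Tyrp1 2.94 times (2.12 to 4.09) and Mlana 3.95 times (2.46 to 6.46). Tyr (2.81, 0.642 to 16.9) and Slc45a2 (2.01, 0.620 to 6.34) had intervals that include 1. A Dct UMI was present in 28.4% of the 155 Pmel-positive cells and 9.86% of the 1997 others, and a Tyrp1 UMI in 22.6% and 5.86%. Without the 3 cells of 10 or more UMIs the folds were 2.26 for Dct, 2.46 for Pmel, 2.50 for Tyrp1 and 2.83 for Mlana. Without all 49 cells of 3 or more, a cut that itself removes cells holding several genes, they were 1.30 (0.925 to 1.81), 1.26 (0.809 to 1.93), 1.19 (0.748 to 1.86) and 2.00 (1.11 to 3.56), and the interval of every one but Mlana then includes 1.

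**Figure D3:**
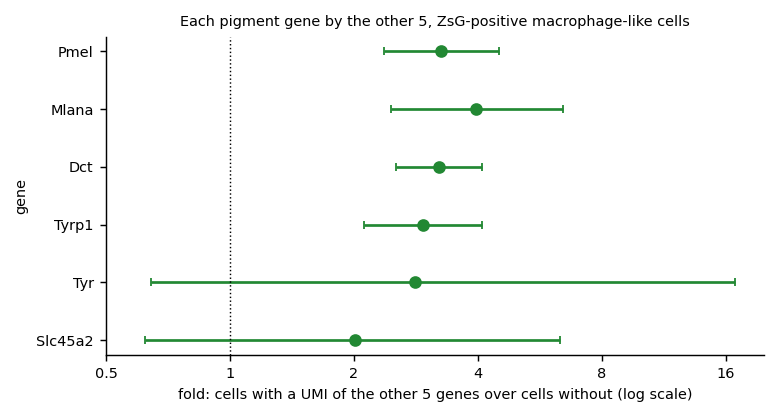
Fold of each pigment gene (log axis) between ZsG+ macrophage-like cells with and without a UMI of any of the other 5 genes, matched on depth and subset, with 95% counting intervals. Dct, Pmel, Tyrp1 and Mlana lie between 2.94 and 3.95 with intervals above 1; those of Tyr and Slc45a2 cross 1.

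The order of the 6 genes by count was shared by ZsG+ macrophage-like cells of the CD45 sort and barcodes rich in pigment RNA. Barcodes with at least 10 pigment UMIs and at least 500 CPM of them were called melanoma-like. The T cell sort held 67 of them (30 ZsG- and 37 ZsG+), and 36 of them had 6000 or more genes. The 67 stood at 14384 CPM of pigment RNA and 8.98 CPM of the leukocyte gene Ptprc (CD45). The filters had removed 48 of the 67, and these held 53287 of the 56080 pigment UMIs. The 19 kept ones stood at 18046 CPM. In these barcodes Dct made up 44.1% of the pigment UMIs, Pmel 20.7%, Tyrp1 16.2%, Mlana 14.1%, Slc45a2 3.27% and Tyr 1.73%. In ZsG+ macrophage-like cells of the CD45 sort Dct made up 39.5% (36.1 to 42.9), Pmel 23.7% (20.9 to 26.8), Tyrp1 21.8% (19.0 to 24.8), Mlana 11.6% (9.52 to 14.0), Slc45a2 1.94% (1.11 to 3.13) and Tyr 1.45% (0.753 to 2.52). The order from Dct down to Tyr was the same. The interval of the Dct share lay below that of the melanoma-like barcodes (43.6 to 44.5) and the interval of the Tyrp1 share above it (15.9 to 16.5), while those of Pmel, Mlana, Slc45a2 and Tyr overlapped. Monocyte-like cells, with 33 UMIs, held 39.4% Dct (22.9 to 57.9) and 21.2% Pmel (8.98 to 38.9), which cannot be told from either. Among the 350 macrophage-like cells with a single pigment UMI, Dct gave 38.0% and Pmel 23.1% of the UMIs, against 39.5% and 23.7% over all macrophage-like cells. Tyrp1 gave 23.4% there, so Pmel and Tyrp1 changed places. Macrophage-like cells of the T cell sort also held more Tyrp1 (26.2%, 18.0 to 35.8) than Pmel (17.5%, 10.7 to 26.2), with intervals that overlap.

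**Figure D4:**
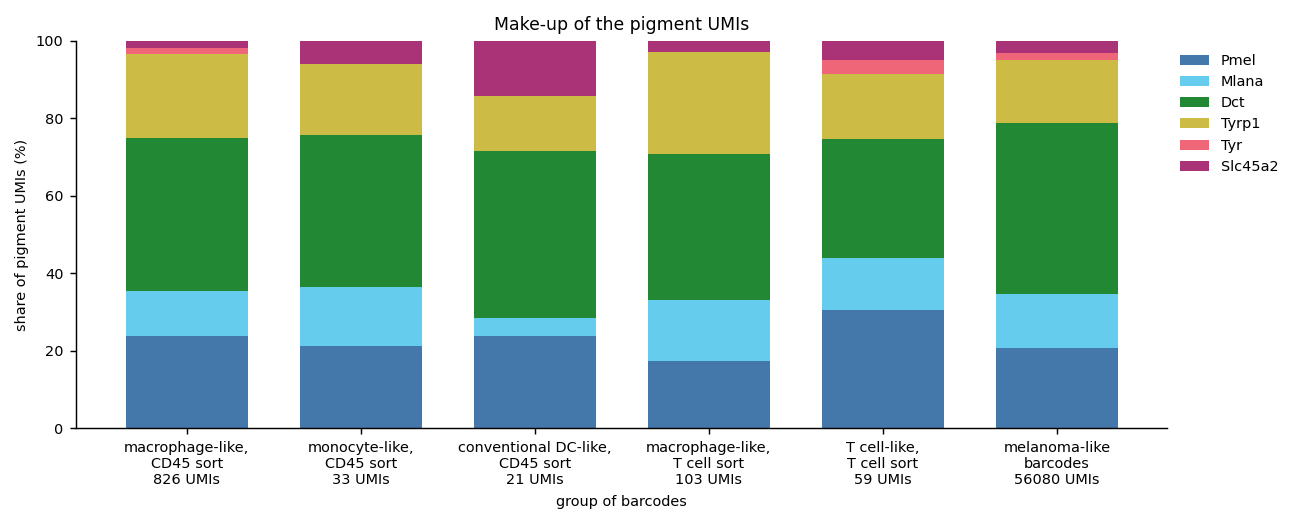
Share of the pigment UMIs (%, bars adding to 100) contributed by each gene in 6 groups of barcodes, with the number of pigment UMIs under each bar; CD45 sort bars are ZsG+ cells, T cell sort bars pool both libraries. Dct is the largest or joint largest part in every bar, and Tyr and Slc45a2 are the thinnest wherever the count exceeds 100 UMIs.

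Macrophage-like cells held between 0.122% and 0.277% of the melanoma-like level of each pigment gene. The share was 0.184% for Dct (0.165 to 0.205), 0.235% for Pmel (0.203 to 0.271), 0.277% for Tyrp1 (0.238 to 0.320), 0.170% for Mlana (0.137 to 0.207), 0.173% for Tyr (0.0893 to 0.302) and 0.122% for Slc45a2 (0.0695 to 0.197). The levels come from different sorts, each scaled to its own library, and from matrices that were made with different versions of Cell Ranger and hold different sets of genes. The part of this was not tested. Another 39 genes were at 100 CPM or more in melanoma-like barcodes, under 1 CPM in ZsG- lymphoid cells and under 5 CPM in ZsG- myeloid cells, and all 39 had UMIs in ZsG+ macrophage-like cells, at a median of 0.249% of the melanoma-like level. Of these, Cryab (2.87 against 2.25 CPM), Ptgds (1.72 against 1.39), Cystm1 (2.30 against 0.930) and Ptp4a1 (0.957 against 0.501) stood higher in ZsG- myeloid cells than in ZsG+ macrophage-like cells, and Cst6 (0.744 against 0.286) and Gsta4 (0.372 against 0.143) stood higher in ZsG- lymphoid cells. They ranged from 0.0348% to 26.0% for Cadm1. The melanosome glycoprotein gene Gpnmb, which macrophages also express, stood at 3.32%.

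**Figure D5:**
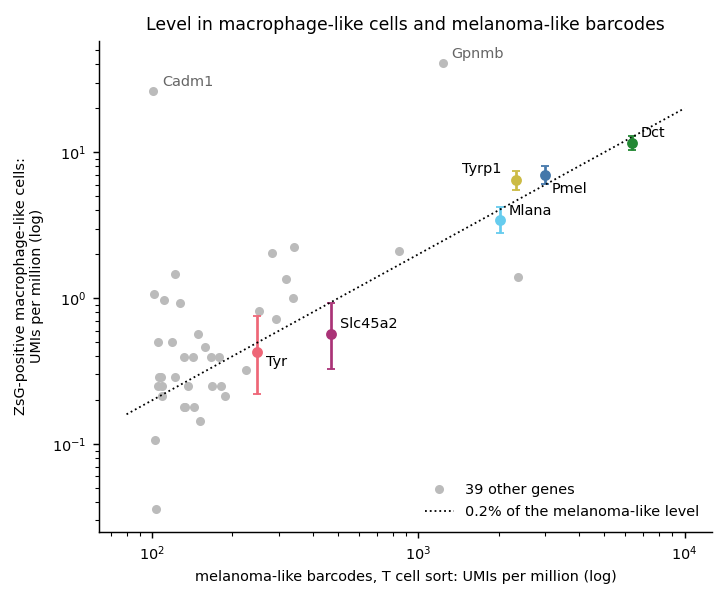
CPM in ZsG+ macrophage-like cells of the CD45 sort against melanoma-like barcodes of the T cell sort (both log axes); the 6 pigment genes are coloured, with 95% counting intervals, the 39 other genes are grey, and the dotted line marks 0.2% of the melanoma-like level. The 6 genes lie near the line between 0.122% and 0.277%, and Gpnmb and Cadm1 lie far above it.

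In the T cell sort, ZsG- and ZsG+ T cell-like cells drawn from clusters had overlapping levels. The ZsG+ library held 37 pigment UMIs in 580 T cell-like cells (7.98 CPM, 5.62 to 10.996) and the ZsG- library 22 in 568 cells (5.76 CPM, 3.61 to 8.72), a ratio of 1.39 (0.796 to 2.47). With the library names exchanged the ratio is 0.722 (0.406 to 1.26). No single member reached 20 UMIs over both libraries, and Dct (13 against 5) and Pmel (11 against 7) were the most counted. For reference, 5.01% of 9648 genes were more than 2-fold higher and 1.49% more than 2-fold lower in the ZsG+ library. The T cell-like class left out 522 ZsG+ and 164 ZsG- unnamed cells, in which CD3 genes stood at 968 and 1176 CPM. Among these was a cluster of 196 cells led by Ifng, Xcl1, Ccl1, Ccl3 and Zbtb32, which the ratio of 1.39 does not cover. Cells defined by CD3 genes alone (at least 0.055% of UMIs) include cells that clustered outside the T cell-like class, among mixed lineage and unnamed cells. They held 95 UMIs in 780 ZsG+ cells, 16 of them in 1 cell, and 30 in 659 ZsG- cells, which is 12.5 and 6.096 CPM and a ratio of 2.05 (1.35 to 3.21). Without cells of 10 or more pigment UMIs this ratio was 1.71 (1.11 to 2.70), and with the library names exchanged it was 0.487 (0.312 to 0.741). The pigment-led cluster held 2766 UMIs in 44 ZsG- cells (11967 CPM) and 88 in 53 ZsG+ cells (310 CPM), and was kept out of the T cell-like class. In it 1 ZsG- cell held 1711 of the UMIs and 1 ZsG+ cell 52. T cell subsets held at most 10 pigment UMIs each and were not ordered. ZsG+ T cell-like cells held 5.17 times the level of those in the CD45 sort (1.64 to 26.2), which rests on 3 UMIs there and on matrices made with different versions of Cell Ranger. The ZsG+ T cell library held 37 melanoma-like barcodes. In the ZsG+ CD45 library 5 barcodes passed the same limits, but they held 9427 CPM of C1q genes and 321 CPM of Ptprc, against 2.56 and 8.98 CPM in the 67 of the T cell sort, and 2 of the 5 were counted as macrophage-like. The part of RNA from melanoma-like barcodes was not tested.

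Myeloid cells caught in the T cell sort repeated the macrophage level in both libraries. Macrophage-like cells stood at 26.9 CPM in the ZsG- library (17.6 to 39.5, 42 cells) and 30.3 in the ZsG+ library (23.9 to 37.9, 150 cells), a ratio of 1.13 (0.713 to 1.83). The ZsG+ value was 1.03 times that of the CD45 sort (0.802 to 1.30), again across matrices from different software versions. These cells were 3.802 times above T cell-like cells of the ZsG+ library (2.54 to 5.79) and 4.68 times above those of the ZsG- library (2.55 to 8.66). Monocyte-like cells went the other way, with 7 UMIs in 28 ZsG- cells (23.8 CPM, 9.59 to 49.1) and 3 in 67 ZsG+ cells (5.03, 1.04 to 14.7), a ratio of 0.211 (0.0352 to 0.923). pDC-like cells stood at 4.74 CPM in the ZsG+ library (2.45 to 8.27, 12 UMIs in 328 cells) and 3.82 in the ZsG- library (2 UMIs in 63 cells), and 0 UMIs were found in 56 NK/ILC-like cells. Dct was again the most counted gene in macrophage-like cells, with 39 of 103 UMIs over both libraries.

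Few genes differed more than 2-fold between positive and negative macrophage-like cells. The 501 positive cells were deeper (median 14660 UMIs) than the 1651 negative ones (10131), and 1648 negative cells were weighted to the same depth bins and subsets. Of 9018 genes with at least 100 UMIs, 3 were more than 2-fold higher in positive cells (0.0333%) and 10 more than 2-fold lower (0.111%), and the median log2 fold was -0.01. The 6 pigment genes set the split and were left out. Of the 501 positive cells 350 held a single pigment UMI, and deeper cells were more often positive. A negative cell therefore cannot be read as a cell without pigment RNA. The weighting also evens out subsets, so the low count of genes does not show that cells with and without pigment RNA are alike. Of genes seen in at least 5% of the cells of either group, the largest folds upward were the eotaxin gene Ccl24 (2.13, 1.76 to 2.58), Serpinb6a (1.87, 1.55 to 2.26) and the chemokine gene Ccl8 (1.86, 1.81 to 1.90), followed by Espn, Ldhb, Ift88, Kdr, Zbtb37, Arhgap19 and Nupl2 (1.69 to 1.85). Downward were Ifitm1, an interferon-induced membrane protein gene (0.374, 0.329 to 0.424), Ear2 (0.425, 0.326 to 0.549), Kmo, an enzyme of tryptophan breakdown (0.452, 0.311 to 0.643), and Rgs18, Il1r2, H2-DMb2, Lss, Polr1e, Hist1h1d and Klf16 (0.504 to 0.560). Ifitm1, a fixed DC2 marker, and Il1r2 were among the leading genes of DC2-like clusters, and Ear2 and H2-DMb2 were among those at the other clustering resolution. The part of such cells in these folds was not tested. Ccl24 stood at 2.03 and Ccl8 at 1.86 without the cells of 10 or more pigment UMIs.

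Other genes of the melanocyte lineage were compared in the same cells. The 12 other melanosome genes summed to 0.970 times the negative level in positive cells (0.907 to 1.04), with Gpnmb at 1.02, the motor gene Myo5a at 0.940 and the trafficking genes Rab32 at 0.922, Rab27a at 1.23 and Rab38 at 1.69 (0.695 to 4.12), and the exchanger gene Slc24a5 at 1.07. Myo5a, Rab32 and Gpnmb gave 563, 446 and 295 of the 1394 UMIs in positive cells. ZsG+ macrophage-like cells held 47.2%, 375% and 3.32% of their melanoma-like levels, so this sum says little about melanoma RNA. The 8 regulators summed to 0.970 times (0.843 to 1.11), of which Mitf, the lineage's transcription factor, which macrophages also express, stood at 0.928 (0.793 to 1.08). The sparser regulator-list genes Trpm1 (12 UMIs in positive cells, 2.81, 1.06 to 7.93) and the endothelin receptor gene Ednrb (22 UMIs, 2.60, 1.30 to 5.29) stood higher, Mc1r stood at 1.63 (0.574 to 4.64), and Kit at 0.443 (0.225 to 0.819). The 10 neural crest and B16 genes summed to 1.53 times (1.31 to 1.80), with Ptgds, a prostaglandin synthase, at 2.72 (1.33 to 5.76), the synaptic vesicle genes Syt4 at 2.42 (1.31 to 4.56) and Syngr1 at 1.40 (1.17 to 1.68), and Fabp7 at 0.859 (0.409 to 1.74). Syngr1 gave 238 of the 322 UMIs of this sum in positive cells. It stood at 3.05% of the melanoma-like level over all ZsG+ macrophage-like cells, and at 3.12 CPM in ZsG- lymphoid cells, so the sum is not particular to melanoma RNA. Without the 3 cells of 10 or more pigment UMIs Syt4 was 1.76 (0.901 to 3.46). Without the 49 cells of 3 or more the last sum was 1.33 (1.12 to 1.57), Syt4 was 1.45 (0.697 to 2.96) and Ptgds 2.00 (0.895 to 4.45). Ednrb had 0 UMIs in the 67 melanoma-like barcodes and 46 in ZsG+ macrophage-like cells. Of these lists 4, 1 and 1 genes had 100 UMIs and 0 of them were past 2-fold, where 0.0333% of all genes were higher and 0.111% lower, so that a count of 0 is no result about the lists.

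Uptake and cell state lists were compared in the same cells. So few genes of any kind were past 2-fold (0.0333% higher and 0.111% lower) that the counts of 0 given here say nothing particular about these lists. C1q genes were 1.198 to 1.26 times higher in positive cells (C1qb 1.198, C1qc 1.24, C1qa 1.26). All 12 lysosome and uptake genes were tested and 0 were past 2-fold, at a median log2 fold of 0.05, with the cathepsin gene Ctsb at 1.13 and Lgmn at 1.16. Of 12 efferocytosis receptor genes 8 were tested and 0 were past 2-fold, with Stab1 at 1.23 (1.11 to 1.37), Mertk at 0.928 (0.761 to 1.13) and Axl at 1.02 (0.940 to 1.12). Of the tested genes of the hypoxia (8), cell cycle (8), interferon (7) and MHC class II (7) lists, 0 were past 2-fold. Endothelial genes summed to 1.38 times (1.14 to 1.66), with Kdr, a receptor for vascular endothelial growth factor, at 1.77 and the tested Vwf at 1.16. Kdr gave 99 of the 203 UMIs. Within the ZsG+ CD45 library this list was highest in pDC-like cells, at 224 CPM against 20.9 in macrophage-like cells, and the part of such cells was not tested. Fibroblast markers had 1 UMI in positive cells and red blood cell markers 0.

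Over 13 classes and libraries of the CD45 sort, the genes most like the pigment sum included several known from macrophages. Likeness was the correlation of log2 levels over these 13 points, which share libraries and differ in depth, among 11195 genes. The pigment sum was highest in ZsG+ macrophage-like cells (log2 level 4.93), with the next point at 2.83. Genes high mainly in that class therefore rank high by construction. The highest were Ccl8 (r = 0.934), the scavenger receptor gene Stab1 (0.923), Gm15056 (0.919), Ccdc80 (0.917), Gpnmb (0.915), Pf4 (0.915), Arg1 (0.899), C1qa (0.889), Cox6b1 (0.881) and Mmp12 (0.874). Each member correlated with the sum of the other 5 at 0.811 for Pmel, 0.774 for Dct, 0.728 for Mlana, 0.639 for Tyr, 0.532 for Tyrp1 and 0.284 for Slc45a2, where 5 to 11 of the 13 points were at 0 UMIs.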

How the data were processed

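Single-cell 3' libraries were sorted from tumors on day 8: 2 from all CD45+ cells and 2 from CD45+TCRb+ cells. The authors deposited raw UMI counts per gene and barcode, 1 matrix per sort. The submitters' processing notes name Cell Ranger 6.1.2 and mm10, while the header of the CD45 matrix (32285 genes) names version 7.0.0 and that of the T cell matrix (31053 genes) 6.1.2, and whether depth was evened out between libraries is not stated in what was read. Kept CD45 cells had 1000 to 6000 genes and under 10% mitochondrial counts. Kept T cell sort cells had at least 50 and fewer than 6000 genes and under 15%. Clusters came from R 4.3.3 and the Seurat package (5.3.0), on 20 components of 2000 variable genes, and were named from marker genes. The 6 genes, the other melanosome, regulator and neural crest lists and the melanocyte markers were left out of these variable genes. Sums, exact Poisson, Clopper-Pearson and conditional ratio intervals were computed in Python 3.11.15 with numpy 2.4.6, scipy 1.17.1 and pandas 2.3.3. Scrublet was run in scanpy 1.11.5, and plots were drawn with matplotlib 3.10.9. Shares were thinned to 2000 UMIs in a single random draw, and negative cells were weighted over 5 depth bins and the subsets. Calls of 2-fold used genes with at least 20 UMIs between classes and 100 between positive and negative cells. Named genes were the 6 members, the 10 largest folds each way, the 10 highest correlations, and genes of the lineage lists with at least 20 UMIs. The members and lists were chosen with earlier results of these data known. Barcodes outside the filters entered no named class, but 48 of the 67 melanoma-like barcodes of the T cell sort were among them. Scripts were tested on simulated data. Alternatives changed the filters, resolution, doublet scores, totals, thinning, genes summed and library names.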

Additional observations from a re-analysis of the deposited data

Results flagged for a closer look

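In the ZsG+ CD45 library and both T cell libraries, the barcodes that the filters removed held pigment RNA above the level of the kept cells. No named class held them, but 48 of the 67 melanoma-like barcodes of the T cell sort were among them. In the ZsG+ CD45 library, 1045 removed barcodes stood at 69.9 CPM (63.4 to 76.8), against 19.8 in its kept cells, while its 76 removed barcodes with more than 6000 genes stood at 19.2 (15.2 to 23.8). The 731 removed for a high mitochondrial share stood at 203 CPM (180 to 227), and 1 of them held 103 of the 425 pigment UMIs. The 769 with too few genes, a group that overlaps the former, stood at 162 CPM (138 to 190). In the ZsG- CD45 library, 738 removed barcodes stood at 0.501 CPM (0.103 to 1.46) on 3 UMIs, which cannot be told from the 0.433 of its kept cells. In the T cell sort, the removed barcodes stood at 9508 CPM in the ZsG- library (188 barcodes) and 9230 CPM in the ZsG+ library (517 barcodes). Of these, the 19 and 36 barcodes with 6000 or more genes stood at 10527 and 11416 CPM.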

How the results depend on the processing

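No paired analysis was possible because each group is 1 library and no result comes from a test between samples. Of 63 alternatives, 48 left the value within its counting interval or the count within 1.5 times, and 15 moved it. The level in ZsG+ macrophage-like cells (29.5 CPM) was 20.6 without cells of 3 or more pigment UMIs, 36.5 without mitochondrial and ribosomal protein genes in the total, 22.5 without Pmel and 26.1 without Mlana. Alternatives chosen after seeing the data gave 26.0 without cells of 10 or more pigment UMIs and 25.8 with mixed lineage cells counted as macrophage-like. The thinned share (5.26%) was 10.7% at 5000 UMIs, 23.3% with no thinning, 4.29% without cells of 3 or more and 3.91% without Pmel. The T cell-like ratio of the T cell sort (1.39) was 0.722 with the libraries exchanged, and 0.487 with both the CD3 limit and the exchange, chosen after seeing the data. The 13 genes past 2-fold between positive and negative cells became 22 with no weighting, 78 with positive set at 2 or more UMIs and 207 with genes of at least 20 UMIs. The NK/ILC-like ratio between gates (14.5) was 4.83 (0.105 to 39.8) without Pmel and 43.4 without cells of 3 or more, and the macrophage-like over NK/ILC-like ratio (5.22) was 12.0 without Pmel. The causes were not tested. Classes with 3 or fewer pigment UMIs are limited by counting.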
